A study of Homo sapiens with 18 samples.

Results

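Integrins are cell-surface receptors that hold cells to the extracellular matrix, and 10 genes that encode their subunits are described here: ITGA1, ITGA2, ITGA3, ITGA5, ITGA6, ITGAV, ITGB1, ITGB3, ITGB4 and ITGB6. They were taken by symbol from a given list and are 10 of the 58051 gene identifiers in the tables and 10 of 26 integrin subunit genes. RNA was sequenced from 3 populations of NCI-H460, an established line grown from a human large cell lung carcinoma: parental cells and 2 populations, resistant #1 and resistant #2, that the series design calls resistant to a drug pair, decitabine with all-trans retinoic acid (ATRA). Each population carries the label wild type and was given either DMSO (0.7% v/v) or 2 µM ATRA with 50 µM decitabine 24 h after seeding, was lysed at 72 h, and is represented by 3 biological replicates per treatment, 18 libraries in 6 groups. The labels do not say whether a resistant population is 1 clone, nor how long it had been without drug. The series title speaks of slowly migrating cells, and the comparisons ask how integrin RNA differs between the populations and how it changes with the drugs.

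Each integrin is 1 alpha and 1 beta subunit, and the pair decides the ligand. ITGB1 pairs with many alpha subunits, so α1β1 and α2β1 bind collagens, α3β1 and α6β1 bind laminins, and α5β1 binds fibronectin. ITGAV pairs with several beta subunits, among them ITGB1, ITGB3 and ITGB6, to bind vitronectin, fibronectin and the latent form of TGF-beta through the amino acid motif RGD, and ITGB4 pairs with ITGA6 in hemidesmosomes, which tie epithelial cells to laminin. Decitabine is a cytidine analogue that blocks the methylation of CpG sites in DNA, and ATRA binds and switches on the retinoic acid receptors, which act on genes.

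The start-site windows of 4 members are shown because CpG sites are where decitabine acts and because these genes span the range found. Each window holds 250 bases before and 50 after the annotated start (RefSeq, GRCh38.p14), is written along the gene's strand, and has its CpG dinucleotides in capitals.
ITGA1, chr5:52787666-52787965, plus strand: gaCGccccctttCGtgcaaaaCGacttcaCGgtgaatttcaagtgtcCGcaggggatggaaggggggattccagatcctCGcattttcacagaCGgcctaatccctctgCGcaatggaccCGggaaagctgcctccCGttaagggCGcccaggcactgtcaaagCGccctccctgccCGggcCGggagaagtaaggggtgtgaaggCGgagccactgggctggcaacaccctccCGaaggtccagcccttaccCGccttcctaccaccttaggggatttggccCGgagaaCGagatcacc
ITGA2, chr5:52989102-52989401, plus strand: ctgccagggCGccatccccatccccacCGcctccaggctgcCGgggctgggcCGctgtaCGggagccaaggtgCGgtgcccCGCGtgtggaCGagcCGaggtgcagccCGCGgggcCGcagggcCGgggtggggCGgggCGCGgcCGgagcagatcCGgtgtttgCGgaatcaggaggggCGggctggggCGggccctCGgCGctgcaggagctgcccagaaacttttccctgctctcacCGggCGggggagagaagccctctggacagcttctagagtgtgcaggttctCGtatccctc
ITGB1, chr10:32958181-32958480, minus strand: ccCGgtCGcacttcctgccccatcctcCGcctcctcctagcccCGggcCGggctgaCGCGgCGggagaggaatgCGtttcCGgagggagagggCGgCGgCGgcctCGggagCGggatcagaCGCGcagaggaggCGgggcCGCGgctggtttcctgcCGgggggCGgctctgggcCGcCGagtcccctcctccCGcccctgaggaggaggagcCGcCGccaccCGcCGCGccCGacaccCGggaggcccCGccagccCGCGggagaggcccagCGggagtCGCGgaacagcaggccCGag
ITGB6, chr2:160200223-160200522, minus strand: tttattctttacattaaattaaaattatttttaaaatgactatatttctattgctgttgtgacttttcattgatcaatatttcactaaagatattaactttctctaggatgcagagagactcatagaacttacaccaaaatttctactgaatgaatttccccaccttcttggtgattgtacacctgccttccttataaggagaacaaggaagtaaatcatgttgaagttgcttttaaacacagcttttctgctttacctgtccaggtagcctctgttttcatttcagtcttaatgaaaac
The ITGB1 window holds 39 CpG, that of ITGA2 holds 27, that of ITGA1 holds 19 and that of ITGB6 holds 0. Over all 35116 windows of this length the median is 14 CpG, with quartiles of 4 and 28. The table held 10 windows for 7 of the 10 members, and the others were between 1 CpG (the second ITGAV window) and 38 (an ITGA6 window). The GC-box letters GGGCGG, read on both strands, occur 4 times in the ITGA2 window and 3 times in the ITGB1 window, and 44.95% of all windows hold them. The letters TGANTCA, the AP-1 motif, occur once among the members' windows, in that of ITGA5, and 7.709% of all windows hold them. The letters AGGTCA, one arm of the retinoic acid receptor motif, occur in the second ITGAV window (13.83% of all windows), and the TEAD motif GGAATG in the windows of ITGA5 and ITGB1 (14.03% of all windows). No methylation or binding was measured, so these letters describe the windows only. ITGA1 and ITGA2 are neighbours on chromosome 5, on the same strand and 30.1 kb apart in the GENCODE 29 annotation of GRCh38.

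Depth was 116877643 to 140921034 reads per DMSO library and 115909967 to 180207304 per treated library, the latter counting restored genes only. Values within a treatment are normalized counts, scaled by the authors separately for each treatment, and values across treatments are CPM, reads scaled jointly so that every library has the same effective total. A difference was called where the adjusted p from limma (Benjamini-Hochberg over all genes tested) was under 0.05, and errors are SD over n = 3 libraries or, for log2 fold changes, standard errors. The keratins KRT8 and KRT18 were abundant in every group, and the summed level of the epithelial markers ranged from 137175 to 520315 normalized counts per library. EPCAM and CDH1, which define epithelial cells, were at 93.5 and 1.38 normalized counts in parental DMSO cells and at 3.88 to 3.90 and 0.915 to 1.07 in the resistant ones. KRT19 averaged 84570 in the parental group, 188443 in resistant #1 and 31026 in resistant #2. Of the 5 epithelial markers tested (not CDH1, which was below the filter), resistant #1 had 1 higher and 2 lower, and resistant #2 had 3 lower and 0 higher. Of all genes, 29.3% were higher and 26.6% lower in resistant #1, and 32.1% and 29.8% in resistant #2. A list of 7 fibroblast markers summed to 8079 to 10046 normalized counts per parental DMSO library, where COL3A1 and LUM led. With DMSO the sums were 490 to 555 for resistant #1 and 3493 to 4486 for resistant #2. Single markers moved both ways. Of the 5 tested (not COL1A2 and PDGFRA), resistant #1 had 1 higher and 4 lower, while resistant #2 had 2 of each. DCN averaged 21.8 in the parental DMSO group and 117 for resistant #1. COL1A1 averaged 820 in the parental DMSO group and 2195 for resistant #2. The part of these markers in the results was not tested. The labels give no batch. In bulk RNA, fewer cells of a kind and less RNA per cell cannot be told apart.

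With DMSO, the resistant populations carried more RNA of nearly every listed integrin. In resistant #1, 9 of the 10 were higher than in parental cells and ITGB4 was lower, against a background of 55.9% of all 21643 genes called (29.3% higher, 26.6% lower). In resistant #2 all 10 were higher, against 61.9% called (32.1% higher, 29.8% lower). Both counts include ITGB3 and ITGB6, which met the filter (10 normalized counts in 3 libraries) through resistant libraries only. For these genes the filter favoured a call of higher. In all 20 of these comparisons the 3 resistant libraries lay on one side of the 3 parental ones. The share of all genes that lay apart in this way was not counted, so this has no background to be read against. The median log2 fold change of the 10 was 1.41 in resistant #1 and 2.4 in resistant #2, beside 0.01 and 0.02 over all genes. All 20 calls were kept under every alternative processing and without any 1 library.

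**Figure D1:**
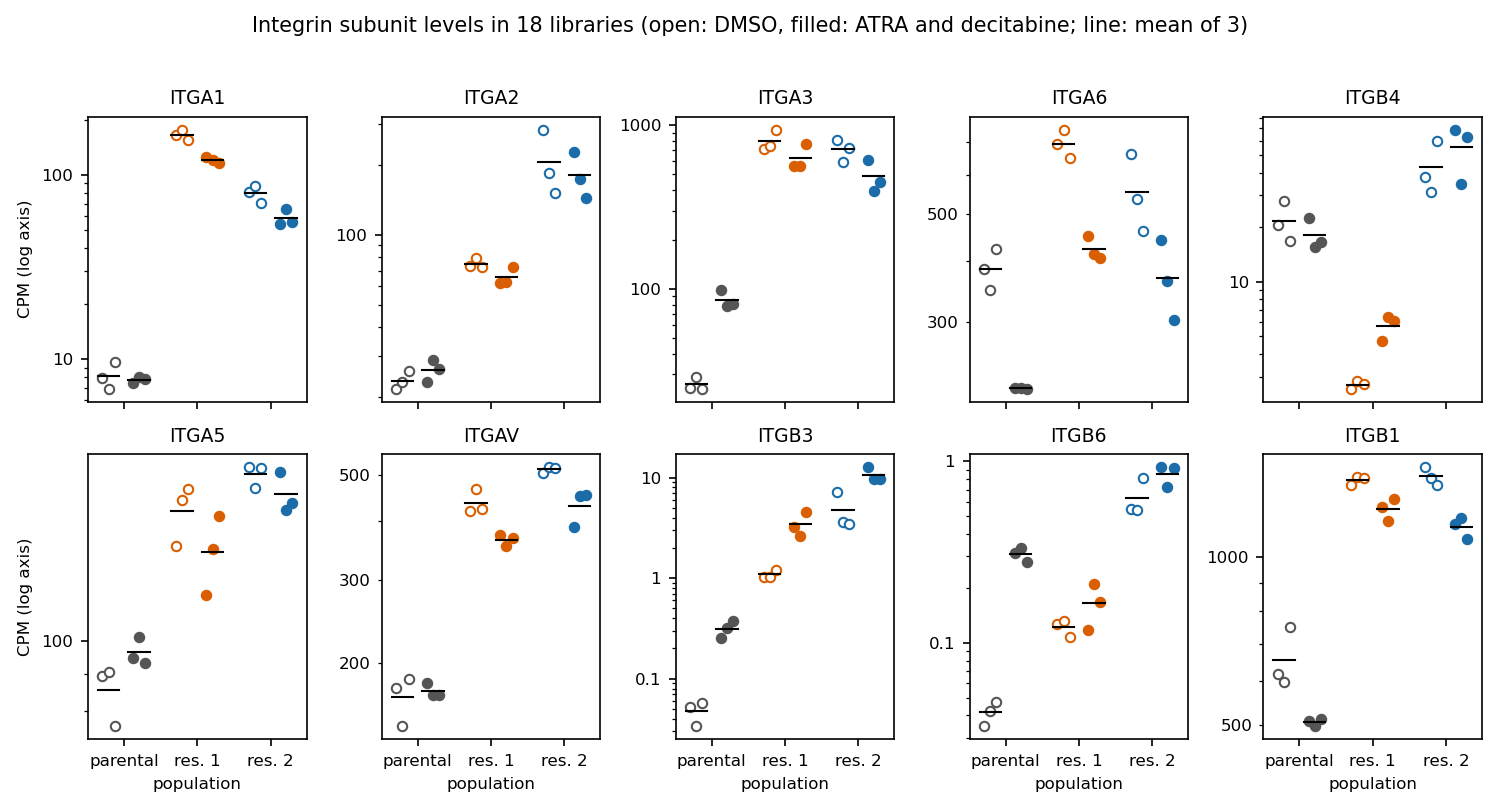
Level of each integrin subunit gene in 18 libraries, as CPM on a log axis that differs between panels, by population; open circles are DMSO, filled circles ATRA with decitabine, and lines mark the mean of 3 libraries. The resistant libraries lie above the parental ones with the same treatment for 8 of the 10 genes in resistant #1 under both treatments (not ITGB4 and, with the drugs, ITGB6) and for all 10 in resistant #2. The share of all genes lying apart in this way was not counted.

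Both listed collagen receptor alpha subunits were higher in both resistant populations. The level of ITGA1 was highest in resistant #1 and that of ITGA2 in resistant #2. ITGA1, the alpha chain of α1β1, was at 894, 784 and 1095 normalized counts in the parental DMSO libraries, at 19127, 20525 and 17925 in resistant #1 and at 9617, 10313 and 8259 in resistant #2. Each population's libraries lay apart from those of the others. ITGA1 was above parental cells by 4.39 ± 0.13 on the log2 scale in resistant #1 (adjusted p = 6.43e-10), by 3.35 ± 0.13 in resistant #2 (adjusted p = 4.15e-09), and resistant #1 exceeded resistant #2 by 1.03 ± 0.13 (adjusted p = 5.47e-05). ITGA2, the alpha chain of α2β1, was at 2457, 2625 and 2930 in parental libraries, at 8485, 9276 and 8404 in resistant #1 and at 33494, 21946 and 17552 in resistant #2. Resistant #2 was thus the highest group here, where resistant #1 was the highest for the neighbour ITGA1, and 1 resistant #2 library stood well above the rest. ITGA2 was higher by 1.71 ± 0.19 in resistant #1 (adjusted p = 1.73e-05), against by 3.14 ± 0.19 for resistant #2 (adjusted p = 1.06e-07), and resistant #1 was below resistant #2 by a log2 difference of -1.43 ± 0.19 (adjusted p = 7.48e-05). Per kilobase of exon, ITGA1 stood at 0.937 ± 0.0263 of the level of ITGA2 in resistant #1, at 0.174 ± 0.0450 in resistant #2 and at 0.147 ± 0.0174 in parental cells.

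Of the laminin receptors, ITGA3 made the largest step of the alpha subunits. ITGA3, the alpha chain of α3β1, was at 2797, 3300 and 2794 normalized counts in parental DMSO libraries, at 82862, 87521 and 108627 in resistant #1 and at 96485, 70802 and 84875 in resistant #2. No resistant library came near a parental one, and the 2 resistant groups overlapped. The log2 fold change was 4.97 ± 0.13 in resistant #1 (a ratio of means of 31.4, adjusted p = 3.53e-10), against 4.82 ± 0.13 for resistant #2 (a ratio of 28.4, adjusted p = 3.46e-10), and 2.12% and 2.61% of all genes tested differed by more. Between the resistant populations the difference was 0.15 ± 0.13 (adjusted p = 0.386). ITGA6, the alpha chain of α6β1 and α6β4, was already at 43457, 39460 and 48127 in parental libraries and at 80674, 86591 and 75569 in resistant #1 and 78693, 63693 and 53605 in resistant #2. It was higher by 0.89 ± 0.13 (adjusted p = 0.000165) and 0.57 ± 0.13 (adjusted p = 0.00304).

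ITGB4, whose long cytoplasmic tail links α6β4 to keratins, was the member on which the resistant populations parted most with DMSO. Outside the 10, ITGA11 and ITGB8 parted further, with log2 differences of -5.99 and -5.68, and are named here after their values were seen. It was at 2323, 3136 and 1901 normalized counts in parental DMSO libraries, at 299, 331 and 316 in resistant #1 and at 4455, 3696 and 6956 in resistant #2. The 3 groups did not overlap, with resistant #1 lowest and resistant #2 highest. The log2 fold change over parental was -2.93 ± 0.23 in resistant #1 (adjusted p = 1.18e-06), against 1.02 ± 0.23 for resistant #2 (adjusted p = 0.0024), so that resistant #1 stood 16.0-fold under resistant #2 by the ratio of means (log2 -3.94 ± 0.23, adjusted p = 1.18e-07).

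**Figure D2:**
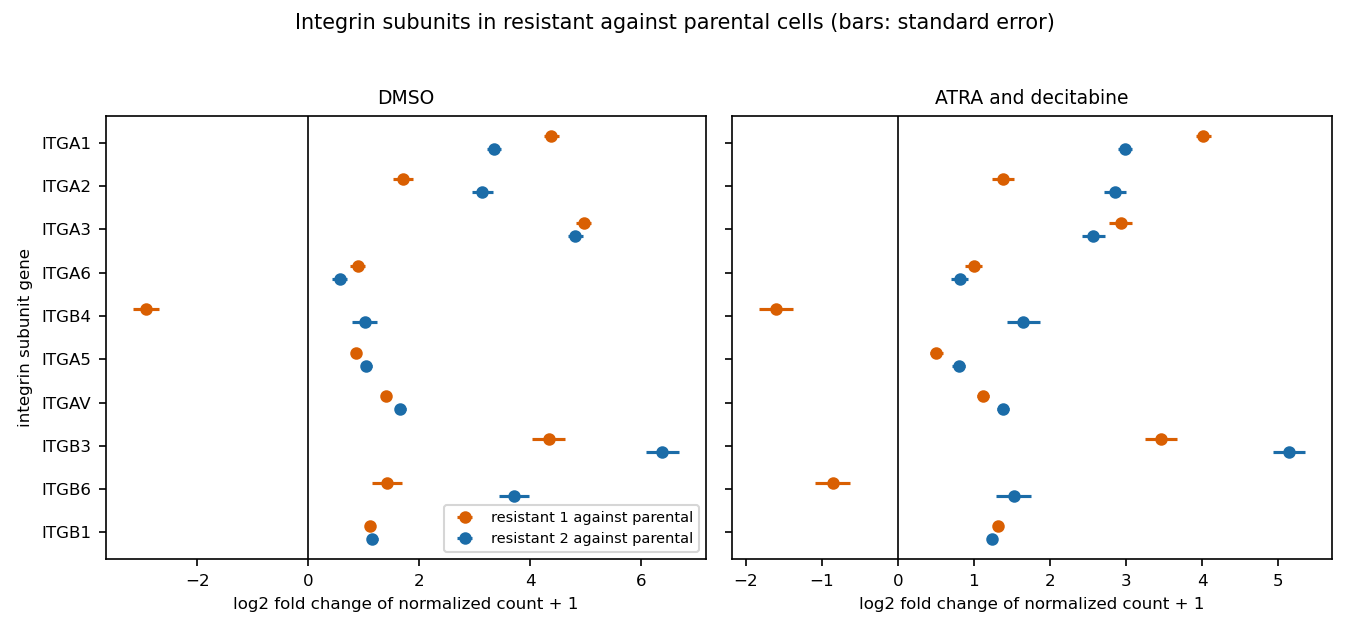
Log2 fold change of normalized count + 1 for each integrin subunit gene in resistant #1 and resistant #2 against parental cells, with DMSO on the left and with ATRA and decitabine on the right; bars are standard errors. ITGB4 lies at -2.93 in resistant #1 and at 1.02 in resistant #2 with DMSO, and ITGB6 in resistant #1 lies at 1.42 with DMSO and at -0.85 with the drugs.

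The listed subunits of the fibronectin and vitronectin receptors were all higher in both resistant populations. Their log2 fold changes ran from 0.86 for ITGA5 in resistant #1 to 6.39 for ITGB3 in resistant #2. ITGA5, the alpha chain of α5β1, was at 10096, 10267 and 8672 normalized counts in parental DMSO libraries, at 15701, 18256 and 18773 in resistant #1 and at 20551, 19281 and 20131 in resistant #2. Its log2 fold changes were 0.86 ± 0.10 (adjusted p = 2.08e-05) and 1.05 ± 0.10 (adjusted p = 3.13e-06). ITGAV was at 20007, 16693 and 21120 in parental libraries, at 48752, 54549 and 49223 in resistant #1 and at 59944, 61690 and 60414 in resistant #2, and was higher by 1.40 ± 0.10 (adjusted p = 4.18e-07) and 1.66 ± 0.10 (adjusted p = 7.9e-08). The parental libraries were lowest for both genes.

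ITGB3, the beta chain of αvβ3, was almost unread in parental DMSO cells, with 6, 4 and 6 reads, or 5.91, 3.83 and 6.49 normalized counts. It was at 120, 120 and 140 in resistant #1 and at 844, 430 and 401 in resistant #2, and the 3 groups stood apart. The log2 fold change was 4.34 ± 0.30 in resistant #1 (adjusted p = 4.56e-07), against 6.39 ± 0.30 for resistant #2 (adjusted p = 1.69e-08), and 1.04% of all genes differed by more in resistant #2. ITGB6, the beta chain of αvβ6, an activator of latent TGF-beta, had 4, 5 and 5 reads in parental DMSO libraries. Its normalized counts were 3.94, 4.79 and 5.41 there, 14.8, 15.5 and 12.6 in resistant #1 and 64.7, 63.96 and 94.5 in resistant #2, again without overlap. ITGB6 was higher by 1.42 ± 0.27 (adjusted p = 0.000943) and 3.71 ± 0.27 (adjusted p = 4.61e-07). The pseudocount of 1 shrinks these low values: on reads, edgeR gave 1.60 and 3.96 for ITGB6 and 4.55 and 6.68 for ITGB3. No parental DMSO library reached the filter's 10 normalized counts for either gene. Both were tested only because resistant libraries did, so their calls of higher are not independent of the filter. Of the exon bases of ITGB3, 51.6% are shared with the readthrough gene AC068234.1 on the same strand, which was counted at 0 to 1.33 normalized counts per library, and 20.6% of those of ITGB6 are shared with AC092153.1. How reads over shared exons were assigned is not given in the sources used here, so the levels of these 2 genes are uncertain.

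ITGB1, the beta chain common to most of these receptors, was at 69722, 67777 and 85255 normalized counts in parental DMSO libraries, at 156890, 162531 and 160978 in resistant #1 and at 172071, 165181 and 157421 in resistant #2. All 6 resistant libraries were above the parental ones and the resistant groups overlapped. The log2 fold changes were 1.12 ± 0.09 (adjusted p = 2.28e-06) and 1.16 ± 0.09 (adjusted p = 1.19e-06).

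Set side by side per kilobase of exon, ITGB1 made up 97.1 ± 1.0% of the 4 listed beta subunits in parental DMSO cells, 99.7% in resistant #1 and 96.9 ± 0.94% in resistant #2. Among the 6 alpha subunits the mix differed: ITGA6 held 60.7 ± 1.5% in the parental group, 38.1 ± 2.8% in resistant #1 and 30.9 ± 2.7% in resistant #2. ITGA3 held 2.77 ± 0.48%, 29.1 ± 3.7% and 26.7 ± 2.8% in the same order. The sum of the alpha subunits was 11001 ± 831 normalized counts per kilobase in parental DMSO cells, 32526 ± 1407 in resistant #1 and 32186 ± 3891 in resistant #2. The sum of the listed beta subunits was 12718 ± 1518, 26719 ± 488 and 28319 ± 1092. Parental cells thus held slightly more listed beta than alpha RNA per length, and the resistant populations the opposite. ITGB5, not among the 10 and chosen here after its values were seen, was at 3856, 5275 and 10200 normalized counts per kilobase in the same order, and is not in the beta sum. Its level exceeded the gap between the alpha and beta sums in resistant #2 and was close to it in resistant #1. The opposite order thus holds for the listed subunits only. Other alpha subunits are not in the alpha sum either.

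**Figure D3:**
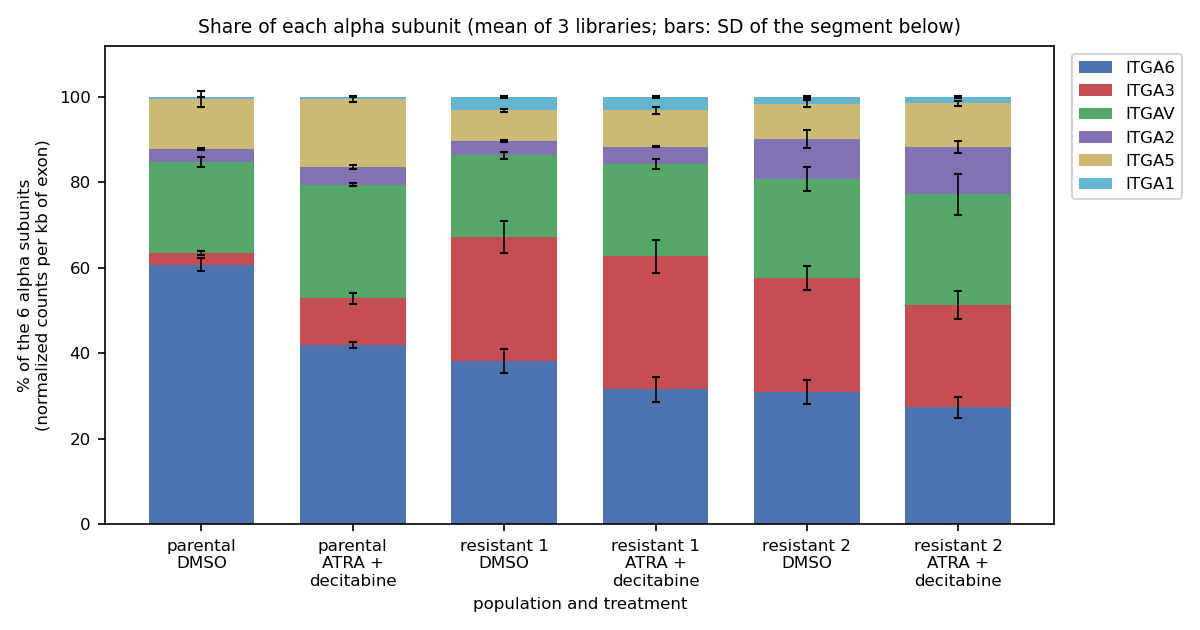
Share of each of the 6 alpha subunits in their sum, in normalized counts per kilobase of exon, for the 6 groups; each bar is the mean of 3 libraries and error bars are the SD of the segment below them. ITGA6 holds 60.7% in parental DMSO cells and 27.3 to 42.0% in the other groups, and ITGA3 holds 2.77% in parental DMSO cells and 10.9 to 31.1% elsewhere.

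Between the resistant populations with DMSO, 6 of the 10 differed, against 53.4% of all genes: ITGA1 was higher in resistant #1 and ITGA2, ITGAV, ITGB3, ITGB4 and ITGB6 were lower (27.4% and 26% of genes). ITGB3 was lower by a log2 difference of -2.05 ± 0.30 (adjusted p = 0.000164) and ITGB6 by -2.29 ± 0.27 (adjusted p = 3.18e-05). ITGAV lay at -0.26 ± 0.10 (adjusted p = 0.042). Same-numbered libraries of these 2 populations correlated (0.17 to 0.75), though the labels state no pairing. With the number as a block the call on ITGAV was lost (adjusted p = 0.0814). It held with the block on these 6 libraries alone (adjusted p = 0.012), where ITGA6 also passed (adjusted p = 0.0427). It was also lost without resistant #1 replicate 1 or 3, any of the resistant #2 replicates, or parental replicate 1 (adjusted p 0.0554 to 0.136). ITGA3, ITGA5, ITGA6 and ITGB1 were not called (log2 -0.19 to 0.32). The ITGA6 difference also passed without resistant #2 replicate 1 (adjusted p = 0.00677), with TMM rescaling (0.047) and with quantile normalization (log2 0.47, adjusted p = 0.00391). Quantile normalization (log2 -0.15, adjusted p = 0.112) and testing without a filter (0.0679) ended the ITGAV call.

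Other genes of the pathway moved in both directions. The counts of each list with DMSO, here and in the following paragraphs, stand beside these shares of all genes. In resistant #1, 29.3% were higher and 26.6% lower, and in resistant #2, 32.1% were higher and 29.8% lower. Of 13 other integrin subunits tested with DMSO, 6 were higher and 4 lower in resistant #1, and 6 higher and 2 lower in resistant #2, with medians of -0.05 and 0.53. ITGA4, a receptor chain for fibronectin and VCAM1, had 12.7 ± 3.5 normalized counts in the parental group, 201 ± 19 in resistant #1 and 204 ± 24 in resistant #2 (log2 3.90 ± 0.22 and 3.93 ± 0.22, adjusted p = 1.01e-07 and 6.91e-08). In resistant #2, ITGA11, a collagen receptor chain, was at 4489 ± 853 against 309 ± 25 (log2 3.84 ± 0.16, adjusted p = 6.07e-09), and ITGB8, which pairs with ITGAV, at 27575 ± 5164 against 2785 ± 417 (log2 3.30 ± 0.17, adjusted p = 2.85e-08). In resistant #1 both were below the parental level, ITGA11 at 69.0 ± 5.7 and ITGB8 at 533 ± 75.

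Of the laminin chains, 6 of 11 were higher and 1 lower in resistant #1, and 9 higher and 1 lower in resistant #2 (medians 0.43 and 1.33). LAMA4 was at 3.33 ± 1.4 normalized counts in the parental group, 1894 ± 415 in resistant #1 and 37096 ± 1456 in resistant #2. LAMB2 rose from 15199 ± 2278 to 99738 ± 15268 in resistant #2 (log2 2.71 ± 0.14, adjusted p = 3.52e-08). Of 9 collagen chains, 6 were lower and 2 higher in resistant #1 (median -2.10), while in resistant #2 4 were higher and 3 lower (median 0.13). COL3A1 fell by 7.79 and 3.83 on the log2 scale in resistant #1 and resistant #2, and COL5A1 fell by 2.52 in resistant #1 but was higher by 5.36 in resistant #2. COL3A1 and COL1A1 are also in the fibroblast marker list. Of 17 RGD and related ligands, 10 were higher and 4 lower in resistant #1, and 12 higher and 3 lower in resistant #2. The tenascin TNC was at 1.04 ± 1.1 normalized counts in parental cells and at 735 ± 156 and 1153 ± 350 in the resistant ones. With DMSO, LAMA4 and TNC met the filter of 10 normalized counts through resistant libraries only. Their calls of higher, which the counts include, are thus not independent of the filter.

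Regulators and adaptors inside the cell moved both ways. Of 12 genes that switch integrins on or off, 3 were higher and 2 lower in resistant #1 and 3 higher and 3 lower in resistant #2, with medians of -0.01 and -0.10. TLN2, a talin that binds beta tails, was higher by 1.013 ± 0.155 and 1.64 ± 0.155 (adjusted p = 0.000208 and 3.76e-06). Of 25 focal adhesion genes, 10 were higher and 5 lower in resistant #1, and 10 higher and 6 lower in resistant #2. PARVA, a parvin that ties integrin-linked kinase to actin, was higher by 1.26 ± 0.10 and 2.05 ± 0.10, and the LIM protein PDLIM5 was lower, at -2.09 ± 0.12 and -2.68 ± 0.12. Of 9 tetraspanin and hemidesmosome partners, many of them membrane proteins, 6 were higher in resistant #1 and 8 in resistant #2, and 0 were lower in either. CD82, a tetraspanin, was at 16.9 ± 4.4 normalized counts in parental cells and at 439 ± 102 and 334 ± 115 in the resistant ones.

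With ATRA and decitabine, the differences of the 10 members from parental cells largely held. In resistant #1, 8 of the 10 were higher than in equally treated parental cells and 2 lower (66.7% of 21843 genes called, 33.6% higher and 33.1% lower). In resistant #2 all 10 were higher (72% called, 36.4% higher and 35.6% lower), and no member overlapped its parental group in either comparison. Here too the share of all genes without overlap was not counted. ITGA3 was at 14010, 11079 and 11424 normalized counts in treated parental libraries, at 84152, 83702 and 111210 in resistant #1 and at 91413, 60937 and 66897 in resistant #2. The log2 fold changes were 2.93 ± 0.15 (adjusted p = 1.72e-08) and 2.57 ± 0.15 (adjusted p = 2.79e-08). ITGA1 differed by 4.02 ± 0.09 and 2.99 ± 0.09, ITGA2 by 1.39 ± 0.14 and 2.86 ± 0.14, and ITGB1 by 1.32 ± 0.06 and 1.24 ± 0.06. ITGA5, ITGA6 and ITGAV differed by 0.51 to 1.38.

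The rare beta chains and ITGB4 again set the resistant populations apart. ITGB3 was at 35.6, 45.0 and 53.7 normalized counts in treated parental libraries, at 484, 384 and 661 in resistant #1 and at 1881, 1466 and 1451 in resistant #2. The differences were 3.46 ± 0.21 (adjusted p = 5.38e-08) and 5.14 ± 0.21 (adjusted p = 1.32e-09). ITGB4 was at 3169, 2219 and 2344 in parental, at 705, 944 and 884 in resistant #1 and at 10234, 5323 and 9399 in resistant #2, and differed by -1.60 ± 0.22 (adjusted p = 4.78e-05) and 1.65 ± 0.22 (adjusted p = 2.86e-05). ITGB6 was at 44.3, 47.7 and 39.7 in parental, at 17.6, 31.2 and 24.5 in resistant #1 and at 138, 111 and 137 in resistant #2. In resistant #1 it was thus below the treated parental cells (-0.85 ± 0.23, adjusted p = 0.00608), on the other side from the DMSO comparison, although quantile normalization ended that call (adjusted p = 0.104). Between the treated resistant populations 7 of 10 differed (58.1% of genes called), ITGA1 higher in resistant #1 and ITGA2, ITGA5, ITGAV, ITGB3, ITGB4 and ITGB6 lower (29.9% and 28.2% of genes). ITGA3, ITGA6 and ITGB1 were not called (log2 0.08 to 0.36), though ITGA3 and ITGA6 passed without resistant #2 replicate 1 (adjusted p = 0.00678 and 0.0125) and with quantile normalization (0.0118 and 0.0251). Quantile normalization ended the calls of ITGA5 (log2 -0.15, adjusted p = 0.185) and ITGAV (log2 -0.14, adjusted p = 0.13). FN1, the ligand of α5β1, was at 5707900 ± 544859 normalized counts in treated resistant #2 against 469629 ± 41525 in treated parental cells (log2 3.60 ± 0.10, adjusted p = 1.02e-10).

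In parental cells the drugs raised ITGA3 and lowered ITGA6, among the abundant subunits. Of the 10, 2 rose and 2 fell, against 66.2% of 21395 genes called (33.2% higher, 33% lower). ITGA3 was at 24.8, 29.1 and 24.6 CPM with DMSO and at 99.01, 78.0 and 80.3 CPM with the drugs, without overlap (log2 of CPM + 1 higher by 1.67 ± 0.17, adjusted p = 1.32e-07). The treated parental level of 85.8 ± 11 CPM was below the 799 ± 119 and 712 ± 110 CPM of untreated resistant #1 and resistant #2. ITGA6 went from 385, 348 and 423 CPM to 220, 220 and 219 CPM (log2 -0.80 ± 0.13, adjusted p = 3.4e-05). The treated libraries lay below all the DMSO ones and nearly on one value. Cell type markers moved in the same libraries: of the markers tested, 4 of 5 epithelial, 4 of 4 smooth muscle and 3 of 4 endothelial ones were higher in treated parental cells, and 1 epithelial marker was lower. In the separately normalized tables CDH1 stood at 1.38 with DMSO and 1403 with the drugs, EPCAM at 93.5 and 1028, and CDH5 at 0 and 497. Their part in the integrin changes was not tested. Of the alpha subunits per kilobase, ITGA6 held 42.0 ± 0.73% and ITGA3 10.9 ± 1.3% in treated parental cells.

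ITGB1 fell from 655 ± 83 to 507 ± 7.4 CPM (log2 -0.36 ± 0.08, adjusted p = 0.000721), without overlap. Quantile normalization turned that direction (log2 0.28, adjusted p = 0.000789) and gave 5 members higher and 1 lower in all. ITGB6 rose from 0.0416 ± 0.0064 to 0.309 ± 0.029 CPM and ITGB3 stood at 0.0478 ± 0.012 and 0.315 ± 0.063 CPM, both without overlap. Both lie under the pseudocount of 1 CPM, so the log2 changes were 0.33 ± 0.06 (adjusted p = 6.17e-05) for ITGB6 and 0.33 ± 0.19 (adjusted p = 0.137) for ITGB3. On reads, edgeR gave 2.97 (adjusted p = 1.66e-07) and 2.81 (adjusted p = 2.85e-05), and called 4 members higher and 2 lower. ITGA5 was at 85.4 ± 7.95 and 96.4 ± 4.3 CPM (log2 0.18 ± 0.09, adjusted p = 0.108), and passed with edgeR (0.27, adjusted p = 0.019). ITGA1, ITGA2, ITGAV and ITGB4 were not called (log2 -0.23 to 0.14). Of 13 other integrin subunits, 11 rose and 1 fell in parental cells (median 0.88), against 33.2% of all genes higher and 33% lower. Among those that rose was ITGA7, from 1.43 ± 0.37 to 13.1 ± 1.0 CPM (log2 2.55 ± 0.12, adjusted p = 9.81e-12). The laminin chain LAMA3 rose from 17.1 ± 1.9 to 124 ± 3.7 CPM (log2 2.79 ± 0.10, adjusted p = 1.32e-13).

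**Figure D4:**
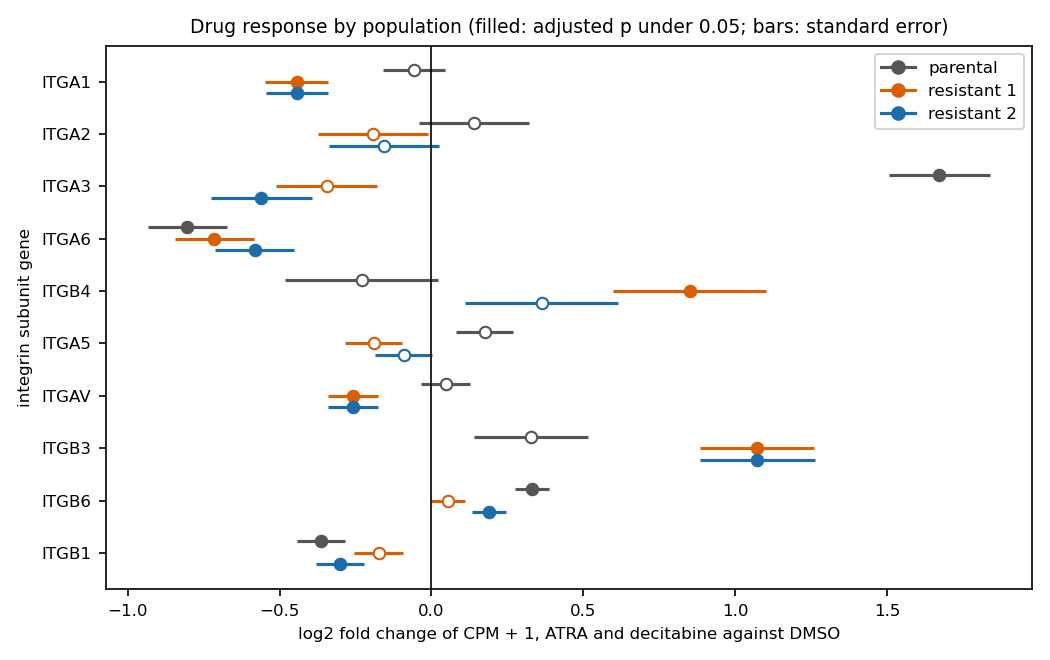
Log2 change of CPM + 1 from DMSO to ATRA with decitabine for each integrin subunit gene in the 3 populations; bars are standard errors, and filled points have an adjusted p under 0.05. ITGA3 lies at 1.67 in parental cells and at -0.34 and -0.56 in the resistant ones, while ITGA6 lies between -0.80 and -0.58 in all 3.

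In resistant #1 the drugs raised 2 members and lowered 3, against 28.5% of genes called (15.7% higher, 12.8% lower). ITGB3 rose from 1.03, 1.03 and 1.21 to 3.23, 2.60 and 4.56 CPM (log2 1.07 ± 0.19, adjusted p = 0.000389) and ITGB4 from 2.58, 2.84 and 2.72 to 4.71, 6.38 and 6.10 CPM (0.85 ± 0.25, adjusted p = 0.0184). Neither overlapped between treatments. ITGA6 fell from 695 ± 46 to 423 ± 23 CPM (-0.71 ± 0.13, adjusted p = 0.000515), ITGA1 from 165 ± 11 to 121 ± 4.7 (-0.44 ± 0.10, adjusted p = 0.00358) and ITGAV from 437 ± 26 to 365 ± 11 (-0.26 ± 0.08, adjusted p = 0.0266). Same-numbered libraries of this comparison correlated (0.47 to 0.94), though the labels state no pairing. A fit of these 6 libraries with the number as a block called 8 members, 2 higher and 6 lower. It added ITGA3 (adjusted p = 0.00131), ITGA5 (0.00612) and ITGB1 (0.0339). The ITGAV call was lost without treated replicate 2 or 3 or DMSO replicate 2 (adjusted p 0.057 to 0.121), and the ITGB4 call without treated replicate 2 or 3 or DMSO replicate 1 (0.0543 to 0.0741). Quantile normalization also ended the ITGAV call (log2 -0.09, adjusted p = 0.393), and a pseudocount of 10 that of ITGB4 (log2 0.31, adjusted p = 0.313). ITGA3 and ITGA5 passed without treated replicate 3 (0.0496 and 0.0492), and ITGB1 without parental DMSO replicate 3 (0.0469).

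In resistant #2 the drugs raised 2 members and lowered 5, against 18.5% of genes called (10.6% higher, 7.92% lower). ITGB3 rose from 7.12, 3.61 and 3.44 to 12.6, 9.57 and 9.75 CPM (log2 1.07 ± 0.19, adjusted p = 0.000631), without overlap. ITGA6 fell from 553 ± 103 to 369 ± 70 CPM (-0.58 ± 0.13, adjusted p = 0.00399), ITGA1 from 79.6 ± 8.1 to 58.3 ± 6.2 (-0.44 ± 0.10, adjusted p = 0.00535) and ITGB1 from 1397 ± 50 to 1134 ± 51 (-0.30 ± 0.08, adjusted p = 0.0134). ITGAV fell by 0.26 and ITGA3 by 0.56 on the log2 scale (adjusted p = 0.0367 and 0.0258), and the ITGA3 libraries overlapped. ITGB6 was at 0.631 ± 0.16 and 0.857 ± 0.12 CPM, overlapping (log2 0.19 ± 0.06, adjusted p = 0.0253), and did not pass with edgeR (adjusted p = 0.143). None of the 7 passed when these 6 libraries were fitted alone without a block, and 6 did, all but ITGB6, with the replicate number as a block. The pairing is inferred here too, from the correlation of same-numbered libraries (0.79 to 0.91).
Single libraries also decided several of these calls. ITGA3 was lost without treated replicate 2 or 3 or DMSO replicate 1 or 3 (adjusted p 0.0598 to 0.123), and ITGAV without treated replicate 1 or any of the DMSO replicates (0.0599 to 0.182). ITGB1 was lost without treated replicate 3 (0.0643), and ITGB6 without treated replicate 1 or 3 or DMSO replicate 1 or 2 (0.0774 to 0.128). Quantile normalization ended the calls of ITGA3, ITGAV, ITGB1 and ITGB6 (adjusted p = 0.115, 0.438, 0.976 and 0.244).

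The test of a difference of responses compares the drug effect in a resistant population with that in parental cells. For ITGA3 the response of resistant #1 was below the parental one by 2.02 ± 0.24 on the log2 scale (value -2.02, adjusted p = 2.82e-06) and that of resistant #2 was lower still (-2.23 ± 0.24, adjusted p = 6.89e-07). These calls were kept under every alternative and without any 1 library. In all 7 members were called for resistant #1 minus parental (2 higher and 5 lower, with 45.5% of genes called, 21.4% higher and 24% lower). For resistant #2 minus parental 4 were called (1 higher and 3 lower, with 50.9% of genes called, 24.4% higher and 26.5% lower). The 1 higher member is ITGB3, which edgeR and DESeq2 called in the other direction (-1.66 and -1.67, adjusted p = 0.0182 and 0.00466). Each of these tools called 6 members in either comparison, and both comparisons share the parental libraries. No member was called for resistant #1 minus resistant #2, where 5.75% of genes were, 3.87% higher and 1.89% lower (limma; 0 members at an unadjusted p under 0.05, 0 with edgeR and 0 with DESeq2). The differences there ranged from -0.14 to 0.49.

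The genes whose CPM followed each member most closely over the 18 libraries are given as a description, since the 3 populations and the drug treatment are shared by all points. Over 14195 other genes at a mean of 1 CPM or more, the closest were NRP1 for ITGA3 (Pearson r = 0.994), LYPD6B for ITGA1 (0.996), PRKCE for ITGA2 (0.993), MEGF9 for ITGB1 (0.993), VAMP3 for ITGAV (0.989) and CST2 for ITGB3 (0.985). For ITGA6 it was ANKRD28 (0.982), for ITGA5 MGLL (0.979) and for ITGB4 NFKBIA (0.974). For ITGB6 it was FAM174B (0.975, over 14196 genes). The third closest gene of each member had an r between 0.968 and 0.992.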

How the data were processed

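RNA sequencing was done on 18 libraries from stranded mRNA (TruSeq), per the labels' protocols. The submitters' processing notes name FastQC, MultiQC, STAR, featureCounts, DESeq2 and the build GRCh38 (hg38). Tool versions and the strand setting: not given in the sources used here.

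The authors deposited 1 table per treatment. The deposited DMSO table holds DESeq2-normalized counts (the signal unit), and 100% of them were whole reads, within 0.01 read, once divided by each library's step. The deposited ATRA and decitabine table is of another unit, since its decimal points were lost; for each gene a Bayesian model chose the decimal places under which all 9 values are whole reads, weighing the DMSO level. Only choices with 99% posterior or more were kept, which left 21843 genes of the 25188 above the count minimum (86.7%; 10 normalized counts in 3 libraries). All 10 members passed (99.88 to 99.98%) and were restored to the same values without the DMSO level (99.69 to 99.85%). Run on the DMSO table without its decimal points, the method resolved 18553 of 21643 genes and gave a wrong value in 44 of them. That run weighed the restored treated levels and used a replicate spread learned from the same DMSO reads. It is therefore not an independent check.

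limma 3.58.1 (R 4.3.3, with a mean-variance trend) was run per table of 9 libraries on log2(normalized count + 1), over 21643 or 21843 genes; responses and their differences used log2(CPM + 1) with TMM (edgeR 4.0.16) on 18 libraries over 21395 genes with at least 0.1 CPM in 3 libraries. Scripts were tested on simulated data. edgeR's quasi-likelihood test on the recovered reads called 12184 genes in resistant #1 against parental with DMSO, where limma called 12102. Alternatives were DESeq2 (1.42.0), other size factors, quantile normalization, pseudocounts, filters, a stricter posterior, the compared groups alone, a replicate block and leaving out each library.

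The labels state no pairing of replicates. The correlation of same-numbered libraries' deviations was over 0.1 in every pair for resistant #1 against resistant #2 with DMSO (0.17 to 0.75). It was so too for treated against DMSO in resistant #1 (0.47 to 0.94) and resistant #2 (0.79 to 0.91), but not elsewhere. In those 3 comparisons the numbers were taken as a possible pairing. The main fits had no replicate block, so their p-values ignore it. The block entered only as an alternative. For resistant #1 against resistant #2 with DMSO this is weak: 2 of 3 libraries correlated best with their own number. Parental treated against DMSO, not taken as paired, also had 2.

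The members and gene lists were chosen with earlier results of these data known. The members are always named. Of each other list up to 3 called genes with the largest change could be named per comparison. Their mean had to reach 50 normalized counts over the 9 libraries of the treatment or, for a response, 0.5 CPM over the 18 libraries. Folds on the log2(value + pseudocount) scale understate changes of low genes.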

Additional observations from a re-analysis of the deposited data

Results flagged for a closer look

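The response to ATRA and decitabine differed from the parental response, by limma's test of the difference (log2 of CPM + 1), for 7 members in resistant #1 and 4 in resistant #2.

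ITGA3 differed most, at -2.02 in resistant #1 and -2.23 in resistant #2: the drugs raised it in parental cells, and neither resistant population showed a rise.

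ITGA1 lay at -0.39 in both (adjusted p = 0.0373 and 0.0346). Its calls were lost without parental treated replicate 2 or 3 or parental DMSO replicate 1 or 2, in resistant #1 also without treated replicate 2 or 3 or DMSO replicate 1 or 2 (up to 0.101), and in resistant #2 also without treated replicate 1 or 3 or DMSO replicate 1 or 2 (up to 0.123). Quantile normalization ended both calls (-0.10 and -0.16, adjusted p = 0.611 and 0.387), as did testing without a filter (0.0596 and 0.0561). ITGAV lay at -0.30 in both (adjusted p = 0.0413 and 0.037). Its calls were lost without any 1 of the parental treated replicates, parental DMSO replicate 2 or resistant #2 DMSO replicate 2. That of resistant #1 was also lost without any of its own treated replicates or DMSO replicate 2 (up to 0.106), and that of resistant #2 without its treated replicate 1 or DMSO replicate 3 (up to 0.17).

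In resistant #1, ITGA5 lay at -0.37 (adjusted p = 0.0318), lost without its treated replicate 1, its DMSO replicate 2 or 3, parental treated replicate 2 or parental DMSO replicate 3 (up to 0.0964). ITGB4 lay at 1.08 (adjusted p = 0.0202), lost without parental replicate 2 of either treatment (0.0536 and 0.0589). A pseudocount of 10 (0.47, adjusted p = 0.213) and quantile normalization (0.83, adjusted p = 0.0575) also ended the ITGB4 call. ITGB6 lay at -0.28 (adjusted p = 0.00904), but it is under 1 CPM in these groups, and edgeR on reads gave -2.54 (adjusted p = 0.000141). Its value ranged from -2.54 to -0.03 over the alternatives, and quantile normalization ended the call (-0.14, adjusted p = 0.132), which was kept without any 1 library.

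ITGB3 lay at 0.75 in resistant #1 (adjusted p = 0.0302) and at 0.75 in resistant #2 (adjusted p = 0.0268), but its parental level is under the pseudocount of 1 CPM. With edgeR on reads the difference had the other sign, -1.15 (adjusted p = 0.107) and -1.66 (adjusted p = 0.0182). The ratio of treated to DMSO CPM was 6.60 for parental cells, 3.18 for resistant #1 and 2.26 for resistant #2. The call was lost in resistant #1 without its treated replicate 3, its DMSO replicate 1 or 2, parental treated replicate 1 or 2 or parental DMSO replicate 1 or 3 (up to 0.085), and in resistant #2 without its treated replicate 1, its DMSO replicate 2 or 3 or parental treated replicate 1 (up to 0.0744).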

How the results depend on the processing

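Every call of a member in resistant against parental cells kept its direction and side of the threshold under all alternatives, except ITGB6 in treated resistant #1 with quantile normalization. The drug responses depended more on the processing. With only the 6 libraries compared, resistant #2 gave 0 called members; with quantile normalization its count was 3 and with no filter 4. A stricter posterior, which leaves out ITGB3, gave 3 for resistant #1. For the difference of resistant #1 minus parental, quantile normalization gave 4 members and no filter 3; for resistant #2 minus parental, no filter gave 1. The causes were not tested.

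Directions turned for ITGB1 with quantile normalization in the responses of parental (0.28), resistant #1 (0.13) and resistant #2 (0.0048) cells and in resistant #1 against resistant #2 with DMSO (0.018), and likewise for ITGB6 in resistant #1 (-0.011) and ITGA5 in resistant #2 (0.025). The uncalled ITGA1 response of parental cells (-0.06) became 0.026 with only the 6 libraries, 0.016 with DESeq2 size factors, 0.031 with edgeR, 0.0097 with DESeq2, 0.095 at the stricter posterior, and -0.16 to 0.057 with 1 library left out. Leaving out 1 library also turned the uncalled ITGA2 response of resistant #2 (-0.36 to 0.095) and ITGAV response of parental cells (-0.052 to 0.11). The ITGB3 difference of responses, as log2, became -1.15 and -1.66 with edgeR, -1.14 and -1.67 with DESeq2, and -0.87 and -1.26 with a pseudocount of 0.01, chosen after seeing the data because the gene lies under 1 CPM.

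With 1 library left out, the called members were 10 in each comparison with parental cells, 5 to 6 (DMSO) and 7 to 9 (treated) between resistant populations, 4 to 5, 3 to 6 and 4 to 7 for the responses of parental, resistant #1 and resistant #2 cells, 2 to 7, 1 to 5 and 0 for the differences of responses.

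With the replicate block in the fit of all libraries, every count stayed within 1.5 times (10, 10, 5 with DMSO; 10, 10, 8 treated; 4, 5, 7 for responses; 7, 4, 0 for their differences), and ITGA3 between treated resistant populations passed (adjusted p = 0.0365). The replicate block on only the 6 libraries was added after the replicate correlations were seen. It gave 7 members for parental cells and 8 for resistant #1, with ITGA1 at 0.026 in parental cells. It ended the calls of ITGA5 and ITGAV between treated resistant populations (adjusted p = 0.0639 and 0.0693).

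Over all genes, calls for the response of resistant #2 were 3960, 1783 with only its libraries and 6292 with the block added; for resistant #1 they were 6094, 10779 with its own libraries and the block, and 3677 at the stricter posterior; for resistant #1 minus resistant #2 they were 1231, 762 with edgeR and 457 at the stricter posterior. ITGB3 and ITGB6 rest on 4 to 6 reads per parental DMSO library.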
